A study of Dicosmoecus gilvipes with 20 samples.

Results

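The transcripts described here are an aquaporin contig, comp64170_c1_seq1, and the 3 contigs of Trinity subcomponent comp61667_c0, of which comp61667_c0_seq1 and comp61667_c0_seq3 were annotated as carbonic anhydrase, in larvae of the caddisfly *Dicosmoecus gilvipes*. They are 4 of the 135858 contigs of the assembled transcriptome. The aquaporin and comp61667_c0_seq1 were on the study's list of temperature-sensitive targets, and that list was chosen from the libraries described below. Their response to temperature in these libraries is therefore given as a description without a test, and so is the sum of the carbonic anhydrase contigs, which contains comp61667_c0_seq1. Contig comp61667_c0_seq3 is also in the authors' table of differentially expressed transcripts, and comp61667_c0_seq2 is not.

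Aquaporins are channels in cell membranes through which water follows osmotic gradients, and in insects they serve the gut, the Malpighian tubules and other epithelia that move fluid. Carbonic anhydrases are zinc enzymes that convert carbon dioxide and water into bicarbonate and protons and back. They supply acid and base equivalents to ion-transporting epithelia and take part in carbon dioxide release and pH regulation.

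Larvae of the fifth instar, collected from 1 stream, were held at 15.5, 20, 25 or 28.6°C for a day after cool acclimation and gradual warming. Thorax was dissected, and polyA RNA was sequenced in 5 libraries per temperature, 20 in all. Thorax had been taken to favour muscle over the digestive tract. The 5 libraries of a temperature were made from pools of the same individuals, so the spread between them leaves out variation between animals, and every comparison is between pools of larvae.

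Estimated counts per library summed to between 6756103 and 14236152, and all 20 libraries were run together. The ribosomal-like subcomponent comp65386_c0 took between 0.490% and 77.0% of these counts and was left out of all totals. At 20°C replicate 1 had 45.0% and replicate 4 had 77.0% of its counts there, and replicate 4 kept 2485595 other counts. Reads reached position 188 in 8 libraries and position 99 in the other 12, a difference called library set below. The long set held 3 libraries of 15.5°C, 1 of 20°C, 4 of 25°C and none of 28.6°C. Levels are given as CPM, in which rounded estimated counts are scaled to library sizes corrected by TMM, a factor that sets the bulk of transcripts equal between libraries.

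The aquaporin contig is 3255 bases long. Its match to a mosquito aquaporin (AQPAe.a of the yellow fever mosquito) runs from base 268 to base 912, with 41.2% identity over residues 27 to 238 of the mosquito protein. The match covers 19.8% of the contig, and 2343 bases follow it. Every one of its 32479 counts over the 20 libraries came from reads that mapped to no other contig, so its estimated count and its unique count were the same number in each library.

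Aquaporin was highest at 20°C and lowest at 28.6°C. At 15.5°C it stood at 224, 239, 224, 232 and 233 CPM in replicates 1 to 5. At 20°C the 5 libraries held 335, 337, 349, 304 and 365 CPM. All libraries of 20°C were above all of 15.5°C, and replicate 4, the library with the most ribosomal-like counts, was the lowest of them. At 25°C the values were 150, 143, 151, 165 and 152 CPM. At 28.6°C they were 73.9, 80.6, 80.3, 75.1 and 80.8 CPM. The ranges of the 4 temperatures did not overlap.

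**Figure D1:**
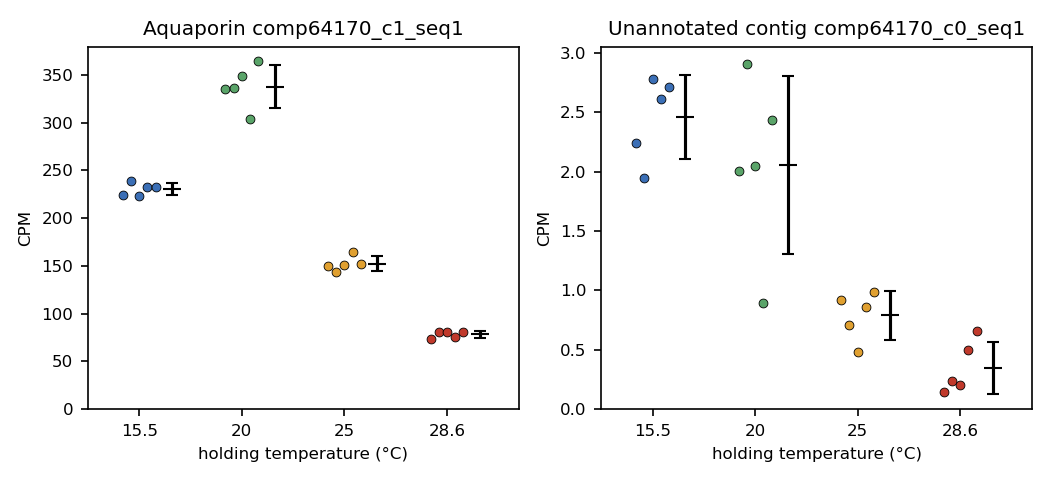
Level in CPM of the aquaporin contig (left) and of the second contig of its Trinity component (right) at each holding temperature in °C. Each point is a library, and the bar beside each group is the mean ± SD of 5 libraries. Aquaporin goes from 338 CPM at 20°C to 78.1 CPM at 28.6°C without overlap between groups, while libraries of the second contig overlap between 15.5 and 20°C.

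Group means were 231 ± 6.54 CPM at 15.5°C, 338 ± 22.5 CPM at 20°C, 152 ± 7.69 CPM at 25°C and 78.1 ± 3.37 CPM at 28.6°C (SD, n = 5 libraries each). The level at 28.6°C was 0.339 of that at 15.5°C, a log2 fold change of -1.56 (SE 0.05). Against 20°C it was 0.231, a log2 fold change of -2.11 (SE 0.05). Over all 30413 transcripts retained the median log2 fold change was 0.01 at 28.6°C against 15.5°C and 0.02 against 20°C. In bulk tissue, fewer cells of a type and less of a transcript per cell cannot be told apart.

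Per degree, the fitted log2 level of aquaporin differed by 0.12 (SE 0.01) from 15.5 to 20°C. It differed by -0.23 (SE 0.01) per degree from 20 to 25°C. From 25 to 28.6°C the difference was -0.27 (SE 0.01) per degree. The downward course therefore spanned both warmer steps, and the level at 25°C was 0.451 of that at 20°C and 0.660 of that at 15.5°C.

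The differences that involve 20°C depended most on scaling. With TMM the log2 fold change from 15.5 to 20°C was 0.55 (SE 0.05), and with library size alone it was 0.09, a setting under which the median of all transcripts moved to -0.42. Under the same setting the step from 20 to 25°C went from -1.15 to -0.79 and the difference of 28.6 from 20°C went from -2.11 to -1.83. FPKM rescaled to a common sum without the ribosomal-like contigs gave a mean of 106 ± 3.49 at 15.5°C and 116 ± 17.7 at 20°C (SD, n = 5 libraries each). On that scale replicate 4 of 20°C, at 85.2, was below every library of 15.5°C, and the other 4 libraries of 20°C, at 120 to 127, were above them. The lower levels at 25 and 28.6°C kept their direction under library size alone, with log2 fold changes of -0.71 and -1.74 against 15.5°C.

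The order of temperatures was also seen within library sets. Among short-read libraries aquaporin was 224 to 239 CPM in 2 libraries of 15.5°C, 304 to 365 in 4 of 20°C, 150 in the only one of 25°C, and 73.9 to 80.8 in 5 of 28.6°C. Among long-read libraries it was 224 to 233 CPM in 3 of 15.5°C, 349 in the only one of 20°C and 143 to 165 in 4 of 25°C. The long set holds no library of 28.6°C, so the warmest level can be read within the short set alone.

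Per length, aquaporin was among the more abundant transcripts at every temperature. By rescaled FPKM it lay at percentile 96.4 of the 30413 retained transcripts at 15.5°C, with 1092 above it, at 97.1 at 20°C and at 91.6 at 28.6°C, with 2565 above it. At 28.6°C it still averaged 36.2 ± 1.97 rescaled FPKM (SD, n = 5 libraries), against 7.71 ± 2.21 for carbonic anhydrase comp61667_c0_seq1. The latter contig was highest at this temperature, and its value depends on a division of shared reads described below.

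The component of the aquaporin has a second contig, comp64170_c0_seq1, which is 744 bases long and was not on the target list. It is absent from the authors' table of differentially expressed transcripts, the source of annotation here, so its annotation is not known. Its 244 counts were all unique to it. Counts at 15.5°C were 23, 31, 24, 22 and 25 in replicates 1 to 5, and at 20°C they were 9, 23, 13, 2 and 24. At 25°C the libraries held 9, 5, 4, 7 and 9 counts, and at 28.6°C they held 1, 2, 2, 4 and 5. Counts were thus few at every temperature, and each library of 25 and 28.6°C was lower than each of 15.5°C in CPM. Within the short-read set it was at 1.95 to 2.24 CPM in 2 libraries of 15.5°C and 0.144 to 0.655 CPM in 5 of 28.6°C. The 3 long-read libraries of 15.5°C were higher, at 2.61 to 2.78 CPM.

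This contig was tested with the quasi-likelihood F test of edgeR, and p-values were adjusted over all retained transcripts by the Benjamini-Hochberg method. A transcript was called when its adjusted p was below 0.05 and its fold change was at least 4 or at most 0.25. Contig comp64170_c0_seq1 passed the filter of 2 CPM in at least 4 libraries through libraries of 15.5 and 20°C alone. Its highest library of 25°C was at 0.988 CPM and that of 28.6°C at 0.655 CPM. A difference between temperatures was thus a condition of its being retained, and its p-values here and below are not free of that selection. At 28.6°C against 15.5°C comp64170_c0_seq1 fell from 2.46 ± 0.352 to 0.348 ± 0.219 CPM (SD, n = 5 libraries each), a log2 fold change of -2.20 (SE 0.31, edgeR adjusted p = 8.8e-06). It was called lower, as were 4.77% of all transcripts. Against 20°C, where it averaged 2.06 ± 0.747 CPM, the log2 fold change was -2.002 (SE 0.31, edgeR adjusted p = 3.0e-05). That comparison called 4.84% of transcripts lower, and the fold lay at the criterion itself. With each library left out in turn its log2 fold change was between -2.19 and -1.87, so the fold criterion was missed without some of the libraries.

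The remaining differences of comp64170_c0_seq1 were below the 4-fold criterion. From 15.5 to 25°C the log2 fold change was -1.39 (SE 0.31, edgeR adjusted p = 0.0014), where 18.1% of transcripts passed the adjusted p in that direction. From 20 to 25°C it was -1.19 (SE 0.31, edgeR adjusted p = 0.0083, with 11.5% of transcripts passing). From 25 to 28.6°C it was -0.81 (SE 0.28, edgeR adjusted p = 0.033, with 15.5% passing), and the adjusted p was lost when any of 6 libraries was left out singly. At 28.6°C the shares passing the adjusted p alone were 22.6% against 15.5°C and 20.4% against 20°C.

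Between 15.5 and 20°C the contigs of the component differed in their values. Aquaporin was higher at 20°C, whereas comp64170_c0_seq1 had a log2 fold change of -0.20 (SE 0.32, edgeR adjusted p = 0.90) and overlapping libraries. For every 100 aquaporin counts pooled over a temperature, comp64170_c0_seq1 had 1.03, 0.666, 0.524 and 0.438 from the coolest to the warmest temperature. Within temperatures this figure ranged widely, from 0.195 to 0.810 at 28.6°C. Whether both contigs come from one transcript was not tested.

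Carbonic anhydrase showed a different course. Its 3 contigs were near the detection limit at 15.5, 20 and 25°C. At 28.6°C every library was above every cooler one for their sum, for comp61667_c0_seq1 and for comp61667_c0_seq2, while libraries of comp61667_c0_seq3 overlapped. Contigs comp61667_c0_seq1, with 1822 bases, and comp61667_c0_seq3, with 1769 bases, both match carbonic anhydrase 2 of a fish of the genus *Tribolodon* from base 320 to base 1060, with 32.05% identity. Contig comp61667_c0_seq2 has 420 bases and is absent from the deposited table, so its annotation is not known. Of the 3, only comp61667_c0_seq1 passed the filter of 2 CPM in at least 4 libraries, and it passed through the libraries of 28.6°C alone, so that a difference between temperatures was a condition of its being retained.

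Summed over the 3 contigs, the reads assigned to carbonic anhydrase numbered 2, 9, 5, 4 and 3 in replicates 1 to 5 of 15.5°C. At 20°C they numbered 1, 5, 5, 2 and 8, and at 25°C 9, 4, 4, 1 and 4. At 28.6°C the libraries held 92, 131, 140, 120 and 135. Each of the 15 cooler libraries thus had between 1 and 9 reads, and the lowest library of 28.6°C had 92.

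**Figure D2:**
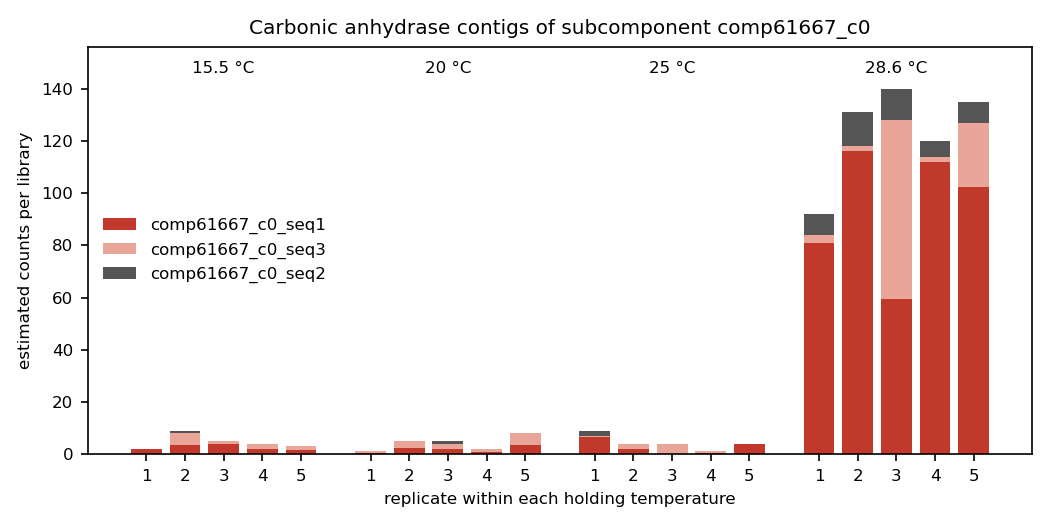
Estimated counts of the carbonic anhydrase contigs in each of the 20 libraries, stacked by contig, with replicates 1 to 5 of each holding temperature side by side. The cooler 15 libraries hold 1 to 9 counts in total and those of 28.6°C hold 92 to 140, and replicate 3 of 28.6°C has nearly equal parts of seq1 and seq3.

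Scaled to library size, the sum was 0.428 ± 0.165 CPM at 15.5°C, 0.669 ± 0.267 CPM at 20°C, 0.504 ± 0.285 CPM at 25°C and 15.2 ± 1.64 CPM at 28.6°C (SD, n = 5 libraries each). The 3 cooler temperatures overlapped with each other and could not be put in order at this depth, since 3 counts correspond to between 0.189 and 1.34 CPM depending on the library. No library of 28.6°C overlapped with a cooler one. The lowest was at 13.2 CPM, while the highest cooler library, replicate 1 of 25°C, was at 0.916 CPM.

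The mean of the summed level at 28.6°C was 35.4 times that at 15.5°C, 22.7 times that at 20°C and 30.1 times that at 25°C. From pooled counts, 618 at 28.6°C against 66 in the 15 cooler libraries gave a ratio of 28.9 with an exact 95% interval of 22.4 to 37.9, which covers counting error only. The fitted log2 fold change against 15.5°C was 4.50 (SE 0.22), a value drawn toward 0 by the prior count of 2, and it was 5.10 in DESeq2, which uses none. Over all transcripts the median in that comparison was 0.01.

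The difference lay in the last step. Per degree, the fitted log2 level of the sum differed by 0.09 (SE 0.07) from 15.5 to 20°C and by -0.06 (SE 0.07) from 20 to 25°C. From 25 to 28.6°C it differed by 1.21 (SE 0.06) per degree. Aquaporin was already at 152 CPM at 25°C, where the summed carbonic anhydrase was within the range of the cooler libraries.

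**Figure D3:**
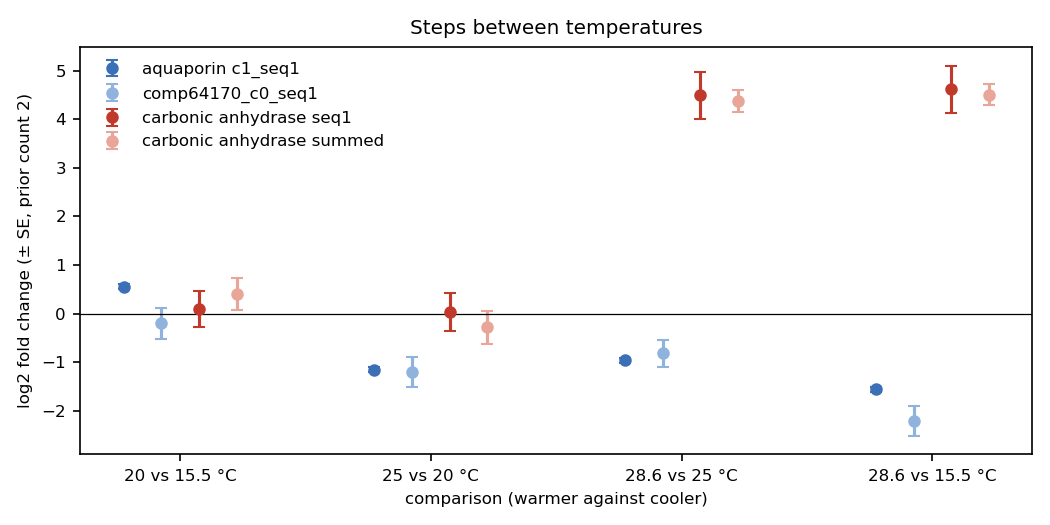
Fitted log2 fold change ± SE (edgeR, prior count 2) of the aquaporin contig, its companion contig, carbonic anhydrase seq1 and the carbonic anhydrase sum for each step between neighbouring temperatures and for 28.6°C against 15.5°C. Aquaporin differs at every step, by 0.55, -1.15 and -0.96, and the carbonic anhydrase sum differs by 4.37 between 25 and 28.6°C.

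Contig by contig, the carbonic anhydrase counts carry an uncertainty that the sum does not. Nearly all reads of seq1 also map to seq3, and eXpress divided them by probability. Over all libraries 8.70% of the counts of seq1 and 0.79% of those of seq3 were unique to the contig. At 28.6°C the unique reads of seq1 numbered 10, 12, 5, 7 and 7 in replicates 1 to 5, and seq3 had 1 unique read in replicate 3 and none in the others.

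The division between the pair varied among libraries of 28.6°C. Contig seq1 took 88.0%, 88.6%, 42.6%, 93.4% and 75.7% of the summed counts in replicates 1 to 5. Replicate 3 was the lowest and assigned 48.8% to seq3. The coefficient of variation at 28.6°C was accordingly 27.7% for seq1 alone and 10.8% for the sum.

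For comp61667_c0_seq1 the level at 28.6°C was 11.6, 13.7, 6.18, 14.0 and 13.4 CPM in replicates 1 to 5. Its mean there was 11.8 ± 3.26 CPM, against 0.251 ± 0.131 CPM at 15.5°C, 0.284 ± 0.176 CPM at 20°C and 0.287 ± 0.304 CPM at 25°C (SD, n = 5 libraries each). No library of 28.6°C overlapped with a cooler library, the highest of which was at 0.713 CPM. The fitted log2 fold change against 15.5°C was 4.62 (SE 0.49), and the ratio of the means was 46.9. Restricting counts to unique reads, which left 41 counts at 28.6°C and 2 at 15.5°C, lowered the fitted value to 2.15.

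Contig comp61667_c0_seq3 had 3, 2, 68, 2 and 25 counts at 28.6°C, where it averaged 2.24 ± 2.96 CPM (SD, n = 5 libraries). At 15.5°C it averaged 0.164 ± 0.106 CPM, and the groups overlapped. Its spread at 28.6°C followed the division of shared reads described above.

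The shortest contig gives a reading that does not depend on that division. All 51 counts of comp61667_c0_seq2 were unique to it, and 47 of them came from 28.6°C. In replicates 1 to 5 of 28.6°C it had 8, 13, 12, 6 and 8 counts. Among the cooler libraries, 12 had none, 2 had 1 count and replicate 1 of 25°C had 2. The counts of 28.6°C and the 4 counts of the cooler libraries gave a ratio of 36.3 with an exact 95% interval of 13.3 to 139. Against 15.5°C alone, with 1 count, the ratio was 60.5 with an interval of 10.3 to 2439. Both intervals treat the counts as pooled over libraries, so they cover counting error only and leave out the spread between libraries.

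Within the short-read libraries the sum was 0.195 to 0.566 CPM in 2 of 15.5°C, 0.223 to 0.891 CPM in 4 of 20°C, 0.916 CPM in the only one of 25°C, and 13.2 to 17.7 CPM in the 5 of 28.6°C. Fitted within that set, the log2 fold change of the sum at 28.6°C was 4.55 against 15.5°C, where all libraries gave 4.50, and 3.71 against 25°C, where all libraries gave 4.37. The latter rests on the only short-read library of 25°C. By rescaled FPKM comp61667_c0_seq1 moved from percentile 3.40 of retained transcripts at 15.5°C to percentile 67.8 at 28.6°C.

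Transcripts whose pattern was most like that of aquaporin were sought among the 8687 transcripts outside its component that averaged 10 CPM or more, by Pearson's r of log2 CPM over the 20 libraries. The libraries share pools and lane, and those of a temperature form a cluster, so r is a description of shared temperature profiles. An r above 0.95 was found for 138 transcripts. The 5 highest, with r between 0.992 and 0.994, were comp59764_c0_seq1, comp64379_c4_seq2, comp62915_c0_seq1, comp57021_c0_seq1 and comp62400_c0_seq1. Only comp64379_c4_seq2 carried an annotation in the deposited table, as lipoyltransferase 1, a mitochondrial enzyme of lipoate metabolism, and 10.4% of its counts were unique. Without the 2 ribosomal-rich libraries of 20°C, 4 of the 5 stayed among the highest.

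Among annotated transcripts the next in order were a facilitated trehalose transporter, a gut-type protease, an epoxide hydrolase and another protease. The trehalose transporter Tret1 (comp63446_c0_seq1, r = 0.991), a carrier that moves the blood sugar of insects across membranes, averaged 273, 414, 174 and 101 CPM from the coolest to the warmest temperature. Trypsin-7 (comp55070_c1_seq1, r = 0.989), a digestive serine protease by its name, averaged 476, 771, 208 and 44.5 CPM. Epoxide hydrolase 4 (comp63197_c0_seq1, r = 0.986) averaged 17.4, 25.9, 9.91 and 4.49 CPM. Trypsin-1 (comp63940_c0_seq6, r = 0.986) averaged 1495, 2752, 546 and 236 CPM, with 6.60% of its counts unique. All of these were highest at 20°C and lowest at 28.6°C, as aquaporin was.

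**Figure D4:**
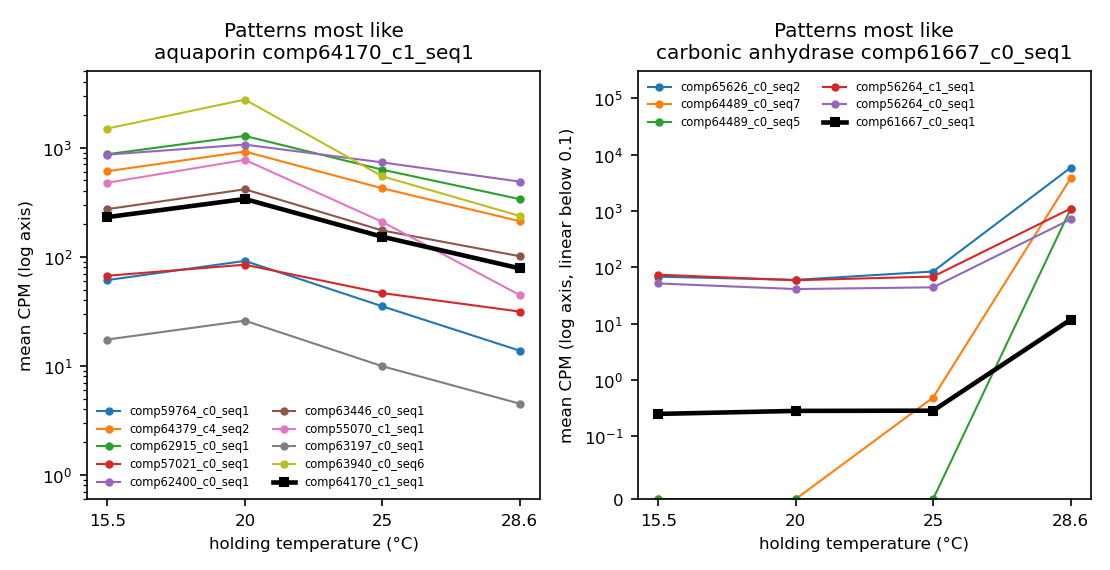
Mean CPM at each holding temperature in °C for the aquaporin contig (left, black) and carbonic anhydrase seq1 (right, black), with the transcripts of highest Pearson correlation over 20 libraries. On the left all lines peak at 20°C. On the right all lines are low up to 25°C and high at 28.6°C, where carbonic anhydrase seq1 reaches 11.8 CPM.

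For comp61667_c0_seq1 the 5 most similar of 8688 transcripts were all annotated, with r between 0.963 and 0.967. With 15 low libraries and 5 high ones, r mainly records the contrast of 28.6°C with the rest, and Spearman's rho lay between 0.553 and 0.748. They were a major heat shock 70 kDa protein (comp65626_c0_seq2), 2 contigs matching protein lethal(2)essential for life (comp64489_c0_seq7 and comp64489_c0_seq5), a relative of the small heat shock proteins in *Drosophila*, and a heat shock 70 kDa cognate and a heat shock 70 kDa protein (comp56264_c1_seq1 and comp56264_c0_seq1). Heat shock proteins are chaperones that bind unfolded proteins.

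The levels of these chaperone transcripts were far above those of carbonic anhydrase. Contig comp65626_c0_seq2 averaged 68.3, 59.9, 84.2 and 5825 CPM at 15.5, 20, 25 and 28.6°C. Contig comp56264_c1_seq1, all of whose counts were unique, averaged 74.0, 59.0, 68.6 and 1097 CPM. The contigs of comp64489_c0 had no unique counts, so their separate levels rest on the division of shared reads. With a prior count of 0.5 in place of 2 the highest r was 0.923.

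The deposited table of differentially expressed transcripts names 37 further contigs, in 16 subcomponents, of water, acid-base and ion transport or its regulation. They were found by words in the protein names and synonyms, and 26 passed the filter on low counts. The table contains only transcripts that the authors had called on these libraries, so the counts that follow are not independent evidence. For the same reason single contigs of the list are described by fold change and SE, without a p-value. At 28.6°C against 15.5°C, 5 of the 26 were called higher, where 6.66% of all transcripts were, and 11 were called lower, where 4.77% were. By adjusted p alone, 8 were higher and 15 lower, where 23.4% and 22.6% of all transcripts were. The median log2 fold change of the 26 was -1.58.

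**Figure D5:**
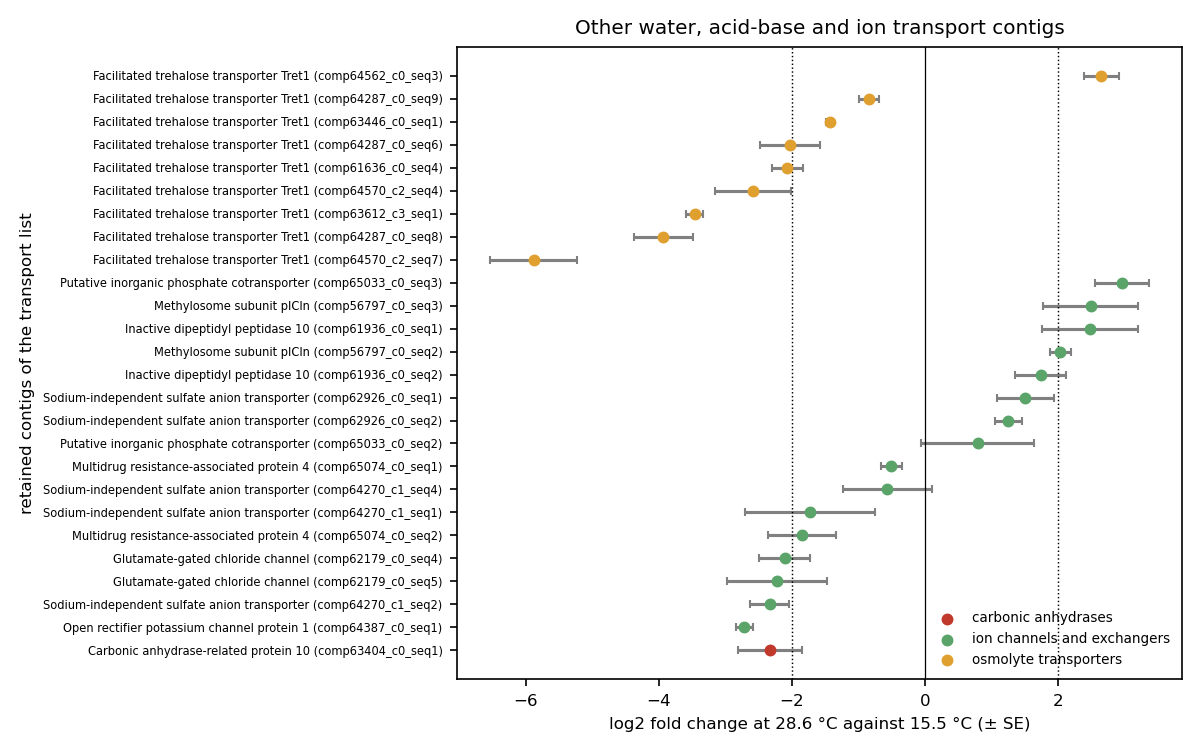
Log2 fold change ± SE at 28.6°C against 15.5°C (edgeR, prior count 2) of the 26 retained contigs of the transport list, coloured by group, with dotted lines at 4-fold. Of these contigs 5 were called higher and 11 lower, and trehalose transporters make up most of those far below 0.

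No further water channel was among them, so comp64170_c1_seq1 is the only aquaporin named in that table. One other contig was named for carbonic anhydrase. Carbonic anhydrase-related protein 10 (comp63404_c0_seq1) belongs to a branch of the family that lacks the enzyme activity. It fell from 5.99 ± 1.06 CPM at 15.5°C to 1.03 ± 0.848 CPM at 28.6°C (SD, n = 5 libraries each), a log2 fold change of -2.33 (SE 0.48). Its direction was opposite to that of comp61667_c0, and 10.2% of its counts were unique. No pump was found by the words used, and the only match for the diuretic signals, an angiotensin-converting enzyme, did not pass the filter.

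Of 18 contigs of ion channels and exchangers, 16 were retained, of which 4 were called higher and 4 lower, beside 6.66% and 4.77% of all transcripts. The most abundant was a sodium-independent sulfate anion transporter (comp62926_c0_seq2), a carrier that moves sulfate across membranes. It averaged 8.12, 47.8, 33.9 and 19.7 CPM from the coolest to the warmest temperature, so that it was highest at 20°C. Its log2 fold change at 28.6°C was 1.25 against 15.5°C (SE 0.20) and -1.25 against 20°C (SE 0.20). Contig comp62926_c0_seq1 of the same subcomponent averaged 5.75, 20.6, 19.6 and 16.8 CPM in that order. Methylosome subunit pICln (comp56797_c0_seq2), listed for a synonym as a chloride channel and known as a factor in the assembly of splicing particles, averaged 10.5, 11.7, 11.7 and 43.7 CPM. It rose by 2.04 (SE 0.16) on the log2 scale at 28.6°C against 15.5°C. Multidrug resistance-associated protein 4 (comp65074_c0_seq1), an exporter of organic anions, averaged 8.41, 24.7, 8.55 and 5.84 CPM, again highest at 20°C. Fewer than 3% of the counts of each of these contigs were unique.

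Osmolyte transporters numbered 17 contigs, all of them trehalose transporters, and 9 were retained, of which 1 was called higher and 6 lower, beside 6.66% and 4.77% of all transcripts. The most abundant, comp63446_c0_seq1, was itself on the study's target list. It averaged 273, 414, 174 and 101 CPM from the coolest to the warmest temperature, and its log2 fold change at 28.6°C against 15.5°C, -1.43 (SE 0.05), is a description without a test. A second, comp63612_c3_seq1, averaged 42.3 ± 1.66 CPM at 15.5°C and 3.60 ± 0.544 CPM at 28.6°C (SD, n = 5 libraries each), and it was already at 5.32 CPM at 20°C. Its log2 fold change at 28.6°C against 15.5°C was -3.46 (SE 0.12). Contig comp64287_c0_seq9 averaged 4.65, 18.2, 7.86 and 2.48 CPM from the coolest to the warmest temperature. Contig comp64562_c0_seq3, with 2.05% of its counts unique, averaged 0.976, 4.71, 13.3 and 7.49 CPM in that order and was highest at 25°C. The counts of comp63446_c0_seq1 and comp63612_c3_seq1 were all unique.

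Markers of tissues that a thorax can hold moved with temperature as well. Gut markers were 65 contigs, of trypsins, chymotrypsins, amylases, maltases, peritrophins and carboxypeptidases. Among them the words also found an angiotensin-converting enzyme and gamma-glutamyl hydrolase A. The gut markers summed to between 11290 and 12140 CPM at 15.5°C, 19930 and 24780 CPM at 20°C, 6909 and 8478 CPM at 25°C, and 3453 and 3763 CPM at 28.6°C. Of the 60 that were retained, 50 passed the adjusted p as lower at 28.6°C against 15.5°C and 1 as higher, beside 22.6% and 23.4% of all transcripts. Apart from the defining contigs, the markers of this and the following lists were found by name in the authors' table of differentially expressed transcripts. The defining contigs are targets or reference transcripts that the study chose from these libraries. Targets were chosen for their response to temperature and reference transcripts for low variation. Neither kind of marker thus makes such a count independent evidence. Alpha-amylase (comp57363_c0_seq1) and chymotrypsin (comp55087_c0_seq1), the defining contigs, were at 0 at no temperature. Among the other contigs of the list, 3, 2, 1 and 3 had no counts at the 4 temperatures, from the coolest to the warmest. The gut sums had the same order over the temperatures as aquaporin, and so had the medians of the fat body sums below. The part of either tissue in its course was not tested.

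Haemocyte markers, 5 phenoloxidase contigs, summed to 401 to 427 CPM at 15.5°C and 80.5 to 103 CPM at 28.6°C. Fat body markers, 6 contigs of storage and lipid-carrying proteins, summed to 8053 to 8552 CPM at 15.5°C, 31840 to 40010 CPM at 20°C, 6699 to 8160 CPM at 25°C and 3885 to 5322 CPM at 28.6°C. The sum for cuticle and epidermis, 13 contigs, went from 3595 to 3996 CPM at 15.5°C to 257 to 340 CPM at 28.6°C. Muscle markers, 9 contigs that include the troponin comp62634_c1_seq14, summed to 1230 to 1549 CPM at 15.5°C and 1207 to 1548 CPM at 28.6°C, ranges that overlap. That sum is carried by comp62634_c1_seq14, with means of 1111 and 1341 CPM. The study used this troponin as a reference transcript, and its reference candidates were picked for low variation in these libraries. An even level of the sum was thus favoured by that choice and is not independent evidence. Of the 9 muscle contigs, 6 passed the adjusted p as lower at 28.6°C against 15.5°C and 2 as higher, beside 22.6% and 23.4% of all transcripts. Troponin I comp63275_c0_seq6 averaged 113 and 18.6 CPM. In the same comparison 5 of 5 retained haemocyte, 4 of 6 fat body and 11 of 12 cuticle contigs passed as lower. Those passing as higher numbered 0, 1 and 1. None of these 4 lists had a contig without counts at any temperature. No marker list was higher at 28.6°C than in all cooler libraries, as carbonic anhydrase was, and the part of tissue composition in either course was not tested.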

How the data were processed

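Per the labels and the study's methods, the authors trimmed reads with Trim Galore 0.3.0, joined overlapping pairs, mapped them with Bowtie2 2.0.6 to their de novo assembly and quantified contigs with eXpress 1.5.1. Deposited counts are whole reads that map to a contig, or to it alone. Estimated counts by the authors divide shared reads by probability, and effective counts adjust these for length bias. Deposited FPKM is per effective length and total of mapped fragments. The authors' table of differentially expressed transcripts holds log2(FPKM + 1) centred per transcript, and only its annotation was used.

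Estimated counts were rounded, comp65386_c0 was removed, and transcripts that reached 2 CPM in 4 or more libraries were tested with edgeR 4.0.16 (TMM, quasi-likelihood, 1 coefficient per temperature, prior count 2) in R 4.3.3, over 6 comparisons. SE was derived from each log2 fold change and its F statistic. The procedure was tested on simulated data. Libraries of a temperature were treated as replicates. The study's supplement describes their RNA as independent pools, each with an equal amount from every individual, so the p-values measure spread between libraries.

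Named transcripts are the members, the other contigs of their components, up to 4 of the highest mean CPM per transport group, and the 5 transcripts (and 5 annotated ones) of highest r with each target. Members and lists were chosen with earlier results of these data known. Words were sought in protein names and synonyms, since the annotation also holds taxon names. Alternatives were other scalings, filters, count types and tools (DESeq2 1.42.0), subcomponent sums, a replicate block, the library set, fits of 2 temperatures and each library left out. Python 3.11.15 made the tables.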

Additional observations from a re-analysis of the deposited data

Results flagged for a closer look

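In 24 groups of 5 libraries (5 contigs and the carbonic anhydrase sum at 4 temperatures), 3 had a library far from the other 4 by Dixon's ratio. All 3 concern comp61667_c0_seq2 where 4 libraries had no count. With 4 libraries at 0 any count in the other one is flagged. The rate of about 1 in 20 by chance, which holds for continuous values, therefore does not apply to them. They are replicate 2 of 15.5°C with 0.0629 CPM from 1 count, replicate 3 of 20°C with 0.157 CPM from 1 count, and replicate 1 of 25°C with 0.204 CPM from 2 counts.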

How the results depend on the processing

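The log2 fold changes at 28.6°C against 15.5°C kept their sign under every alternative that gave a value. Aquaporin moved by more than its spread with library size only (-1.74) and without a filter (-1.64), and was between -1.57 and -1.53 with each library left out. Carbonic anhydrase seq1 moved to 5.57 with DESeq2 and 2.15 with unique counts, and was between 4.51 and 4.78 with each library left out. The carbonic anhydrase sum moved to 5.10 with DESeq2 and was otherwise between 4.37 and 4.58 with each library left out. Contig comp64170_c0_seq1 stayed past the adjusted p in the 32 alternatives that gave a value, with -2.39 to -2.08 when each library was left out. Total counts and the short-read set alone gave no value for it. Its difference between 25 and 28.6°C lost the adjusted p in 9 alternatives. Transcripts called higher at 28.6°C against 15.5°C, 2025, became 282 with 2 CPM required in all libraries, 859 with unique counts, 883 with total counts and 7116 by adjusted p alone. Those called lower, 1451, became 222, 601, 732 and 6874. The filter of 2 CPM in all libraries removed the carbonic anhydrase contigs and comp64170_c0_seq1, which gave no value there.

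Replicate numbers did not pair the samples, since the correlation of deviations of the 30 same-numbered pairs was between -0.02 and 0.05. With the number as a block, the log2 fold changes were -1.56 for aquaporin, 4.58 for seq1, 4.50 for the sum and -2.23 for comp64170_c0_seq1, and 2031 transcripts were called higher and 1494 lower. The depth of 1 to 9 carbonic anhydrase reads in the cooler libraries limits any comparison among 15.5, 20 and 25°C.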
